A study of Rattus norvegicus with 12 samples.

Results

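Lithium chloride (LiCl) was added at 10 mM to metatarsals that were also treated with the synthetic glucocorticoid dexamethasone at 1 µM, and gene expression was compared with that of metatarsals given dexamethasone alone. The comparison used 6 of the 12 libraries, 3 with dexamethasone + LiCl and 3 with dexamethasone, and covered 12602 of the 30045 gene symbols in the files. These were the genes that reached 60 counts in 2 or more of the 12 libraries. The bones were the middle metatarsals of the hind paws of Sprague-Dawley rat fetuses at embryonic day 19, cultured for 72 h, and each library was made from a pool of about 20 whole bones. Both groups carried dexamethasone, and both received it in ethanol. The other 6 libraries (3 control with ethanol only and 3 with ethanol and LiCl) entered the fit and were used only to set the response to LiCl without dexamethasone beside the response with it. No group received another salt at the concentration of LiCl, so lithium and added salt cannot be told apart. Whole bones can hold perichondrium and remnants of soft tissue beside cartilage, and in such pools fewer cells of a type and less RNA per cell cannot be told apart.

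The fetal metatarsal is a cartilage model of a long bone. Its chondrocytes divide, enlarge (hypertrophy) and lay down the matrix that lengthens the bone. Glucocorticoids act through a receptor that switches on target genes directly and slow this growth. Lithium inhibits glycogen synthase kinase 3 (GSK3), an enzyme that marks β-catenin for destruction. When GSK3 is blocked, β-catenin can accumulate and act with TCF/LEF proteins in the nucleus, and the genes it switches on include several inhibitors of the Wnt pathway itself. GSK3 also acts on enzymes of glycogen and glucose metabolism, and lithium inhibits several phosphatases of inositol metabolism.

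Total counts were 9263078 to 11685463 with dexamethasone and 9055581 to 17872189 with dexamethasone + LiCl. The 6 libraries correlated with each other at 0.969 to 0.991 in log2 CPM (counts scaled to a common library total). The cartilage genes Col2a1, Acan and Sox9 were expressed in all 6. One dexamethasone library, replicate 2, was lower in the collagen II gene Col2a1, at 48109.6, 24541 and 47391 CPM in the 3 libraries, and in the bone sialoprotein gene Ibsp, at 701, 220.4 and 600.1 CPM. Replicate 2 was also the lowest in both genes among the libraries with LiCl added. Of the defining markers of other tissues, the muscle stem cell gene Pax7 had no count in any library and the epidermal keratins Krt5 and Krt14 had 0 or 1.

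Adding LiCl to dexamethasone changed 172 genes by more than 2-fold, or 1.36% of those tested (adjusted p under 0.05, edgeR's quasi-likelihood test over all genes). Of these, 97 were up-regulated (0.77%) and 75 down-regulated (0.595%). Without the fold limit 1084 genes passed (8.6%), 481 of them higher (3.82%) and 603 lower (4.78%), and the median log2 fold change of all genes was -0.00424. The libraries of a gene are called separate below where all 3 of one group lay above all 3 of the other. This was so for 13.3% of all genes in the upward and 14.4% in the downward direction. Among the genes that rose most were genes of skeletal muscle fibres (Myl1, Acta1), the microtubule genes Tppp3 and Tppp, the betaine transporter Slc6a12 and the Wnt inhibitor Nkd2. Those that fell most included the kinase anchor Sphkap, the matrix protease Mmp3 and the Wnt antagonist Frzb. Calls past 2-fold numbered from 128 without dexamethasone replicate 3 to 206 without dexamethasone replicate 2. Without the fold limit 587 to 665 genes passed when any 1 of the compared libraries other than dexamethasone replicate 2 was left out, and 1098 without that library.

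**Figure D1:**
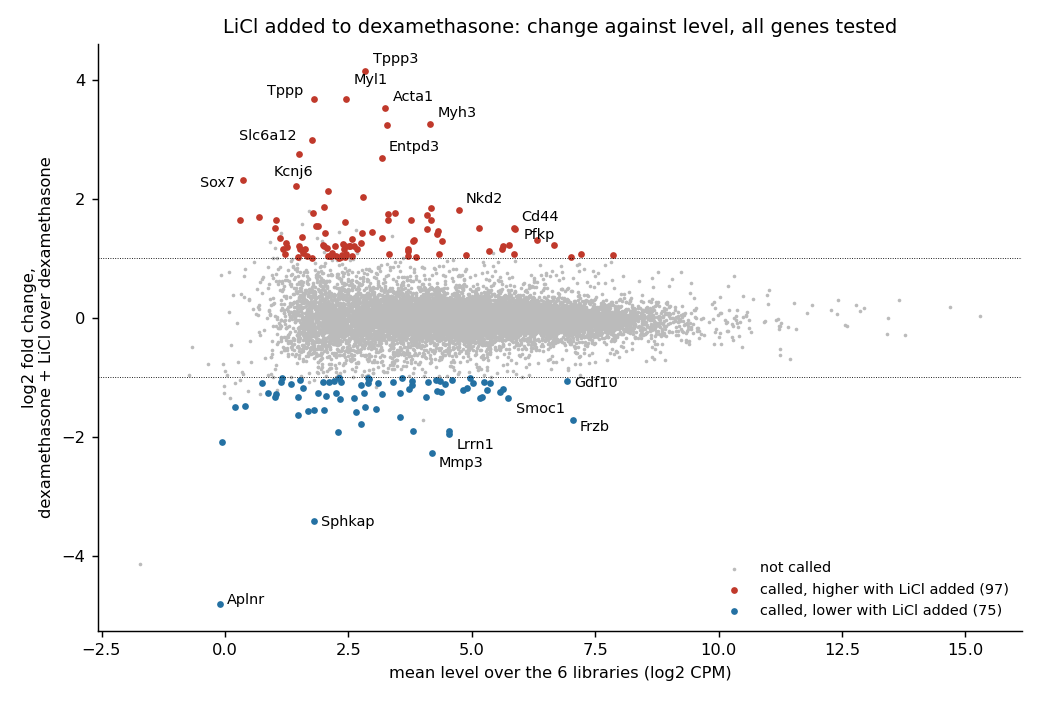
Change against level for the 12602 genes tested. The horizontal axis is the mean level over the 6 libraries (log2 CPM), the vertical axis the log2 fold change of dexamethasone + LiCl over dexamethasone, and dotted lines mark 2-fold. Red points are the 97 genes called higher and blue points the 75 called lower, with Tppp3 highest at 4.15 and Aplnr lowest at -4.81.

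The Wnt pathway was examined first, because lithium acts on GSK3. Several inhibitors that β-catenin is known to switch on rose. Of 26 measured feedback and target genes of the pathway, 7 were higher and 1 was lower with LiCl added, against 3.82% and 4.78% of all genes, and the list's median was 0.07. The 7 were Nkd2, Notum, Cd44, Apcdd1, Nkd1, Axin2 and Lef1, and all had separate libraries. Over the 26 genes, libraries were separate above in 7 and below in 6, against 13.3% and 14.4% of all genes. The gene that was lower was Bambi (-0.59). The targets Ccnd1 (-0.21) and Myc (-0.25) did not pass. Lef1 did not pass without dexamethasone replicate 1 or 2 or dexamethasone + LiCl replicate 1 or 3 (adjusted p = 0.0533 to 0.114). Wnt feedback genes that rose numbered 6 without dexamethasone replicate 1 or 2 or dexamethasone + LiCl replicate 1 or 3 and at most 7 without any other library. With the replicate number as a term in the fit (replicate block), 7 were higher and 3 lower. That fit passed more genes in general, 5.55% of all genes as higher and 7% as lower. Each count with the replicate block below stands against these shares. Wnt feedback genes that fell numbered from 0 without dexamethasone replicate 1 or 3, LiCl replicate 3 or any 1 dexamethasone + LiCl library to 4 without control replicate 2.

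Nkd2, an inhibitor that binds Dishevelled, was at 13.2, 12.3 and 9.75 CPM in the 3 dexamethasone libraries and at 41.5, 42.3 and 40.9 CPM with LiCl added, a log2 fold change of 1.81 ± 0.10 (SE, n = 3 pools per group, adjusted p = 1.76e-07). Its relative Nkd1 was at 58.1, 55.3 and 62.5 CPM and at 96.7, 111 and 116 CPM (log2 fold change 0.88 ± 0.09, adjusted p = 2.9e-05). All libraries of both genes were separate, and those of Nkd2 lay within a narrow range in each group. Notum, a secreted enzyme that removes the lipid from Wnt proteins, was at 9.73, 7.81 and 8.97 CPM and at 28.2, 24.8 and 29.02 CPM (log2 fold change 1.64 ± 0.16, adjusted p = 1.4e-05). Axin2, a scaffold of the complex that destroys β-catenin, was at 24.3, 15.5 and 24.4 CPM and at 37.8, 30.3 and 44.3 CPM (log2 fold change 0.82 ± 0.16, adjusted p = 0.00428). Dexamethasone replicate 2 held the lowest value of Axin2, and the lowest library with LiCl added was still above all 3 with dexamethasone. The TCF/LEF factor Lef1 had a log2 fold change of 0.69 ± 0.19 (adjusted p = 0.0343), the weakest of the 7 by adjusted p. The hyaluronan receptor Cd44 rose by 1.50 and the membrane inhibitor Apcdd1 by 0.94 on the log2 scale.

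The stretches upstream of Axin2 and Nkd1 are shown because both hold the letters CTTTGAT, the core that TCF/LEF proteins bind. They are the 250 bases before the start of the gene in RefSeq (rat build GRCr8, not necessarily the build behind the counts), read on the strand of the gene with the core in capitals. Axin2 lies on the forward strand (chr10:94398535-94398784) and Nkd1 on the reverse strand (chr19:34722847-34723096).
Axin2: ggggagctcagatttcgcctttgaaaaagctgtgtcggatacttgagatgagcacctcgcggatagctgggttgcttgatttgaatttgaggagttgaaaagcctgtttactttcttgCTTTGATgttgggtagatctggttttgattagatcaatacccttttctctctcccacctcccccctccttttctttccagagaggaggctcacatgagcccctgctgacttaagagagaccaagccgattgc
Nkd1: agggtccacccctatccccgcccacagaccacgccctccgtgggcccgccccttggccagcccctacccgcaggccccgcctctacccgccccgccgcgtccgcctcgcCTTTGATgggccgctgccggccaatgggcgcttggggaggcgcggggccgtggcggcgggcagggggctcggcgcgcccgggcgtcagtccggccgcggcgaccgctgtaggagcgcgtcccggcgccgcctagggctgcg
The core began 132 bases before the start of Axin2 and 141 bases before that of Nkd1. Searched on both strands, it was in 3.15% of the 33469 upstream stretches of this length. Of the 7 Wnt genes that rose, 6 had an entry and 2 held the core. Such a match describes letters and does not show that a protein binds there.

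Among genes of secreted Wnt antagonists the changes went both ways. Of 10 measured, 2 were higher and 4 lower, with a median of -0.10. Frzb, which binds Wnt proteins outside the cell and is a gene of joint and resting cartilage, was at 224, 152 and 233 CPM with dexamethasone and at 52.01, 59.03 and 73.4 CPM with LiCl added (log2 fold change -1.72 ± 0.16, adjusted p = 1.12e-05). The highest library with LiCl added was below the lowest with dexamethasone. The related antagonists Sfrp2 (log2 fold change -1.08) and Sfrp5 (-0.95) also fell, and Wif1, another Wnt-binding protein, rose by 0.86. Of 21 measured Wnt ligands and receptors, 3 were lower and none higher (4 and 1 with the replicate block). The 3 were the R-spondin Rspo3 (-1.05), which strengthens Wnt signals, and the receptors Fzd4 (-0.65) and Ror1 (-0.58).

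The genes of lithium's own targets were examined next. Of 13 measured genes of these enzymes and of the β-catenin complex, 1 was higher and 1 lower. Gsk3b was at 126, 119 and 127 CPM and at 127, 112 and 123 CPM, and its groups overlapped (log2 fold change -0.04 ± 0.09, adjusted p = 0.833). The gene of β-catenin itself, Ctnnb1, was slightly lower, at 862, 869 and 916 CPM and at 742, 719 and 722 CPM (log2 fold change -0.28 ± 0.07, adjusted p = 0.0247). Ctnnb1 did not pass without dexamethasone replicate 1 or 3 or any 1 dexamethasone + LiCl library (adjusted p = 0.0535 to 0.0954). Phosphoglucomutase (Pgm1), which links glycogen to glycolysis and is inhibited by lithium, rose by 0.67. Pgm1 did not pass without dexamethasone replicate 3 (adjusted p = 0.0553). These are transcript levels and do not report protein or enzyme activity.

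Genes of the contractile apparatus of skeletal muscle rose, some of them more than 8-fold. Of 40 genes of the sarcomere in the files, 21 passed the count filter. Of these, 11 were higher and none was lower, with a median of 0.54. Acta1, Actc1 and Myl1 had 60 counts in no library without LiCl and so were tested only because of their level with LiCl. Myh3 and Mylpf reached 60 counts in only 1 library without LiCl, so they too passed the filter only through libraries with LiCl. The count of 11 is therefore a description. It ranged from 7 without dexamethasone replicate 3 to 12 without control replicate 1 or 2, dexamethasone replicate 2 or LiCl replicate 1 or 2. With the replicate block 13 were higher and 1 lower. Without the count filter 21 were higher, in a fit where 1383 of 23569 genes passed in either direction. The summed level of all 40, filtered or not, was 554, 584 and 496 CPM with dexamethasone and 779, 843 and 742 CPM with LiCl added, so that the groups did not overlap.

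Skeletal α-actin (Acta1), a gene of the thin filament, was at 1.35, 1.68 and 1.46 CPM and at 19.9, 18.3 and 14.4 CPM (log2 fold change 3.53 ± 0.30, adjusted p = 4.75e-06). Embryonic myosin heavy chain (Myh3), a gene of newly formed fibres, was at 2.59, 5.46 and 1.68 CPM and at 37.4, 32.2 and 28.1 CPM (log2 fold change 3.26 ± 0.32, adjusted p = 1.86e-05). The fast-fibre light chain Myl1 was at 0.724, 1.09 and 0.448 CPM and at 11.9, 9.95 and 8.70 CPM (log2 fold change 3.68 ± 0.26, adjusted p = 1.2e-06). All 3 genes were near the lower end of detection with dexamethasone alone and rose in each library with LiCl added. Troponin I of slow fibres (Tnni1, 1.51), myosin binding protein C (Mybpc1, 1.77) and the fast-fibre light chain Mylpf (2.04) rose as well. The actin genes Acta1, Actc1 and Acta2 are near-identical in their coding sequence, so that reads may be split between them. Acta2, the smooth muscle form, rose by 1.29.

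The muscle markers Tnnc2 and Ckm failed the filter and had more counts with LiCl added. Troponin C of fast fibres (Tnnc2) had 6, 4 and 1 counts with dexamethasone and 31, 47 and 60 with LiCl added, and muscle creatine kinase (Ckm) had 2, 0 and 1 against 17, 34 and 30. The factor that starts muscle differentiation, Myod1, had no count in the 3 dexamethasone libraries and 4, 8 and 7 with LiCl added, too few for a fold. Of 19 genes of myogenic factors and muscle stem cells, 11 failed the filter and were not tested. Among them the fibre-forming factor Myog averaged 0.534 CPM over the 3 dexamethasone libraries and 3.23 CPM with LiCl added, the fusion gene Tmem8c 0.159 and 0.923 CPM, and the acetylcholine receptor subunits Chrna1 and Chrnd 0.125 and 0.786 CPM, and 0.056 and 0.623 CPM. Of the 8 measured, none was higher and 2 were lower, Mef2a (-0.33) and Eya1 (-0.52), both also expressed outside muscle. Mef2a did not pass without dexamethasone + LiCl replicate 1 or 3 (adjusted p = 0.0503 to 0.064). Eya1 did not pass without dexamethasone replicate 1 or 3 or any 1 dexamethasone + LiCl library (adjusted p = 0.0529 to 0.118). Of 5 measured genes of calcium release and excitation in muscle, 3 were higher, and 1 of these, Scn4a, reached the count filter only in libraries with LiCl. The calcium release channel Ryr1 rose by 1.16 and sarcalumenin (Srl), which binds calcium in its store, by 1.16. The share of muscle in each pool was not measured, and its part in these values was not tested.

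The stretch upstream of Acta1 is shown because this gene had the strongest rise among muscle genes with an entry that holds a CArG box, the site bound by serum response factor. It is the 250 bases before the gene on the reverse strand (chr19:68784195-68784444, RefSeq, GRCr8), with the box in capitals.
Acta1: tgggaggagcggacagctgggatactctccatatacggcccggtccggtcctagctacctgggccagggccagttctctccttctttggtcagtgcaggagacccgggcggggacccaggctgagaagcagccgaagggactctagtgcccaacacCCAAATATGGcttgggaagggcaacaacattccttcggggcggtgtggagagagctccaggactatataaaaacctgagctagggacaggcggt
The box began 94 bases before the start of the gene. It was in 1.5% of all 33469 upstream stretches (both strands) and in 2 of the 8 entries found for the 11 muscle genes that rose. No entry was found for Mylpf, Tnnt3 and Tcap.

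**Figure D2:**
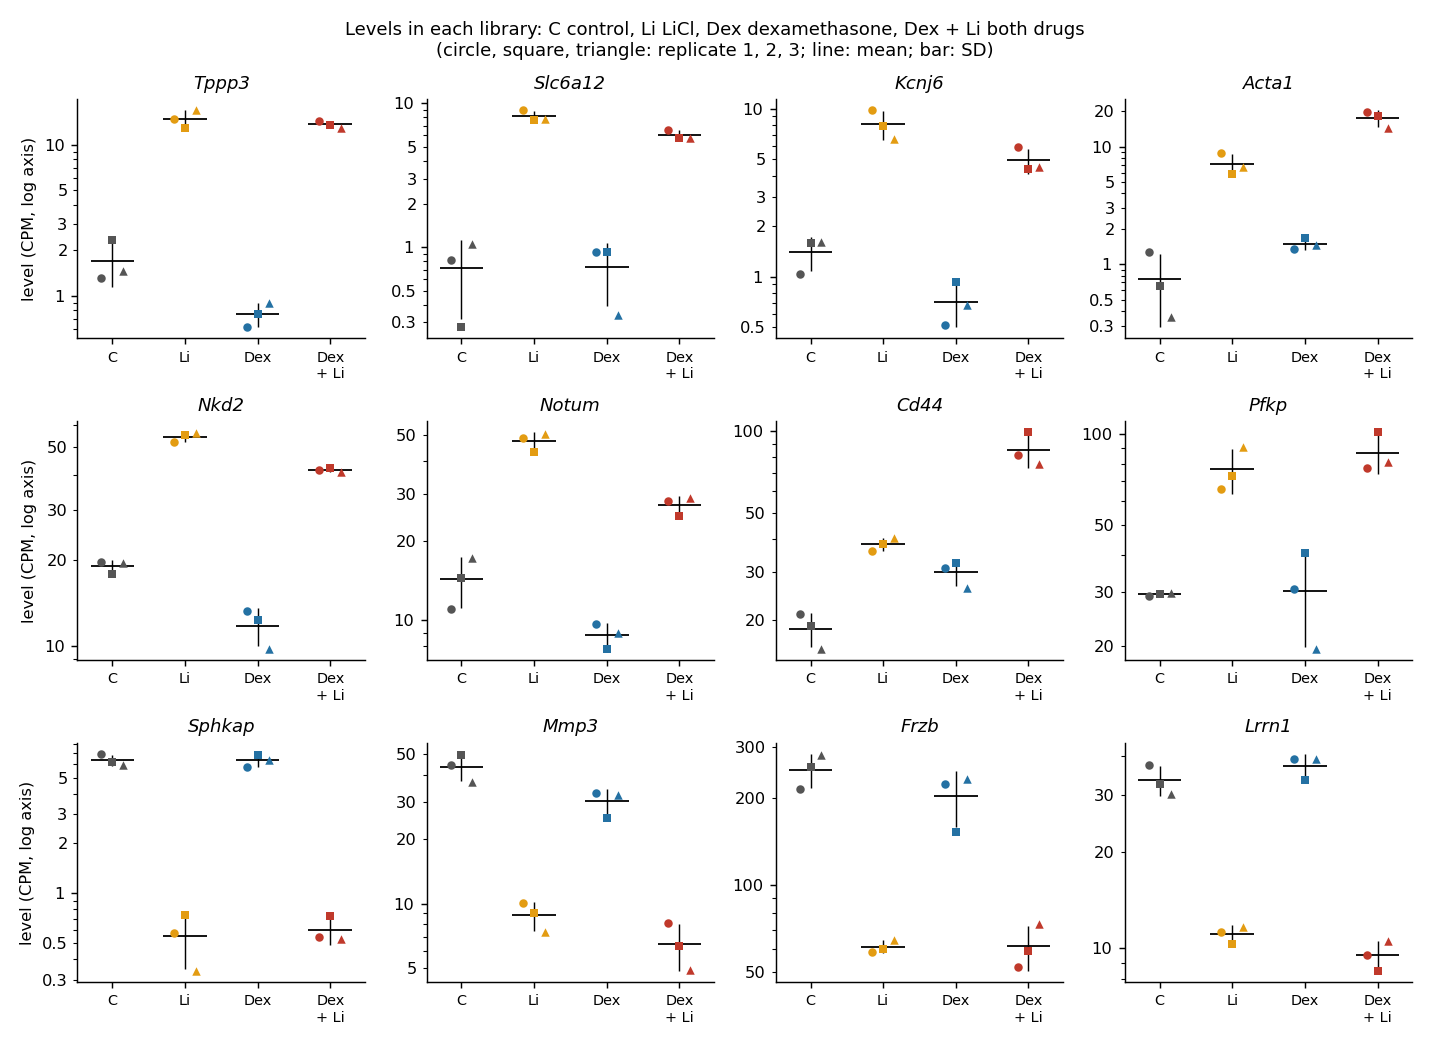
Levels of 12 genes in each of the 12 libraries (CPM, log axis), in control, with LiCl, with dexamethasone and with both drugs. Symbols are replicates 1, 2 and 3, horizontal lines are means and vertical bars the SD of 3 libraries. The 3 libraries with both drugs lie above the 3 with dexamethasone alone in the upper 8 panels and below them in the lower 4.

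Outside muscle and the Wnt pathway, the genes with the strongest rises were Tppp3, Tppp, Slc6a12 and Kcnj6. Tppp3, a protein that bundles microtubules and is known from tendon and joint progenitors, was at 0.621, 0.755 and 0.897 CPM with dexamethasone and at 14.4, 13.4 and 12.96 CPM with LiCl added (log2 fold change 4.15 ± 0.25, adjusted p = 1.76e-07). Its relative Tppp was at 0.724, 0.168 and 0.672 CPM and at 6.01, 6.84 and 6.42 CPM (log2 fold change 3.68 ± 0.44, adjusted p = 9.87e-05). Both were nearly undetected with dexamethasone alone, and their 3 libraries with LiCl added lay close together. Slc6a12, which carries the osmolytes betaine and GABA into cells, was at 0.931, 0.923 and 0.336 CPM and at 6.56, 5.75 and 5.78 CPM (log2 fold change 2.99 ± 0.33, adjusted p = 4.33e-05). Kcnj6, an inwardly rectifying potassium channel, was at 0.517, 0.923 and 0.672 CPM and at 5.90, 4.38 and 4.50 CPM (log2 fold change 2.75 ± 0.31, adjusted p = 5.69e-05). These 4 genes had levels of at most 0.931 CPM in all dexamethasone libraries. None of them reached 60 counts in a library without LiCl, so they were tested only because of their level with LiCl.

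Entpd3, an enzyme that breaks down extracellular ATP, rose by 2.68 on the log2 scale and the co-stimulatory ligand Cd80 by 2.22. Calml3, a calmodulin-like protein, rose by 2.13, and the basement membrane collagen gene Col7a1 by 1.73. Barx1, a homeobox gene of forming joints, was at 5.59, 3.94 and 4.03 CPM and at 14.9, 16.97 and 13.9 CPM (log2 fold change 1.75 ± 0.20, adjusted p = 6.4e-05). Mt1a, a metallothionein that binds zinc, was at 2.90, 1.18 and 1.12 CPM and at 7.65, 6.20 and 5.14 CPM (log2 fold change 1.86 ± 0.30, adjusted p = 0.0014). Metallothionein genes are closely similar, and reads may be split between them. Like the genes above, Cd80, Barx1 and Mt1a reached 60 counts only in libraries with LiCl. The mitochondrial protein Ndufa4l2 rose by 1.85, with a wide spread at 7.14, 13.6 and 2.02 CPM with dexamethasone. Ndufa4l2 did not pass without dexamethasone replicate 1 or 3 or dexamethasone + LiCl replicate 2 or 3 (adjusted p = 0.0526 to 0.0905).

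Among the genes that fell, Sphkap, which anchors protein kinase A, was at 5.79, 6.88 and 6.39 CPM with dexamethasone and at 0.546, 0.73 and 0.526 CPM with LiCl added (log2 fold change -3.41 ± 0.27, adjusted p = 3.12e-06). Mmp3, the protease stromelysin 1, was at 32.8, 25.1 and 32.4 CPM and at 8.09, 6.30 and 4.91 CPM (log2 fold change -2.26 ± 0.18, adjusted p = 3.89e-06). Lrrn1, a leucine-rich membrane protein, was at 39.01, 33.5 and 39.1 CPM and at 9.51, 8.49 and 10.5 CPM (log2 fold change -1.96 ± 0.12, adjusted p = 2.44e-07). In all 3 genes the groups lay far apart compared with the spread inside them. Aplnr, the apelin receptor of blood vessel cells, had 11, 12 and 29 counts with dexamethasone and 1, 0 and 1 with LiCl added, so that its fitted log2 fold change of -4.81 depends on how counts near 0 are treated. Aplnr was called nonetheless (adjusted p = 0.00258). Sphkap and Aplnr reached 60 counts only in libraries without LiCl, so they were tested only because of their level there.

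Among other genes called lower, the sorting receptor Sorcs3 had a log2 fold change of -1.66, the synaptic adhesion protein Lrrtm2 one of -1.64, the glutamate receptor subunit Grik3 one of -1.57 and the adhesion protein Ncam2 one of -1.55. Ncam2 did not pass without dexamethasone + LiCl replicate 1 or 3 (adjusted p = 0.0583 to 0.0608). Lrrtm2 and Ncam2 too reached 60 counts only in libraries without LiCl. Transferrin (Tf), the iron carrier, was at 18.1, 8.98 and 39.8 CPM and at 3.72, 3.19 and 9.93 CPM, with overlapping groups (log2 fold change -1.90 ± 0.45, adjusted p = 0.0166). Tf did not pass without dexamethasone replicate 3 or dexamethasone + LiCl replicate 1 or 2 (adjusted p = 0.0693 to 0.103). Its value in dexamethasone replicate 3 was the highest of the 6, and so was the value of replicate 3 among the libraries with LiCl added. The matrix protein Smoc1, a calcium-binding inhibitor of BMP signals, was at 86.7, 58.4 and 85.4 CPM and at 33.9, 25.7 and 30.7 CPM (log2 fold change -1.35 ± 0.14, adjusted p = 2.17e-05).

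Of 23 measured genes of glycolysis and glucose transport, 9 were higher with LiCl added and 1 was lower, with a median of 0.63, the largest median among the lists with at least 20 measured members. With the replicate block 17 were higher and 2 lower, against 5.55% and 7% of all genes in that fit. Glycolysis genes that rose numbered from 3 without dexamethasone replicate 1 or 3 or dexamethasone + LiCl replicate 2 to 16 without dexamethasone replicate 2. The summed level of the 26 genes was 2380, 2960 and 1890 CPM with dexamethasone and 3360, 4230 and 3530 CPM with LiCl added. Replicate 2 had the highest sum in both groups, and the lowest sum was that of dexamethasone replicate 3.

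The platelet form of phosphofructokinase (Pfkp), which commits glucose to glycolysis, was at 30.8, 40.6 and 19.5 CPM and at 77.5, 102 and 81.1 CPM (log2 fold change 1.50 ± 0.19, adjusted p = 0.000153). The liver form Pfkl was at 141, 143 and 102 CPM and at 209, 221 and 236 CPM (log2 fold change 0.79 ± 0.12, adjusted p = 0.000885). The lactate exporter Slc16a3 was at 43.1, 72.9 and 20.6 CPM and at 91.1, 140.3 and 112 CPM (log2 fold change 1.31 ± 0.32, adjusted p = 0.0189). All 3 were higher in each library with LiCl added than in the library of the same number with dexamethasone. Slc16a3 did not pass without dexamethasone replicate 1 or 3 or dexamethasone + LiCl replicate 2 (adjusted p = 0.0522 to 0.0747). Lactate dehydrogenase A (Ldha), which makes lactate from pyruvate, rose by 0.94. Ldha did not pass without dexamethasone replicate 1 or 3 or dexamethasone + LiCl replicate 2 (adjusted p = 0.0767 to 0.0785). Gapdh, a glycolysis gene often used as a reference, had a log2 fold change of 0.79, with an adjusted p = 0.0602 and 0.00668 with the replicate block. Enolase 3 (Eno3), the muscle form, fell, with a log2 fold change of -0.60. Eno3 did not pass without dexamethasone replicate 3 or dexamethasone + LiCl replicate 1 or 2 (adjusted p = 0.0596 to 0.0812).

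**Figure D3:**
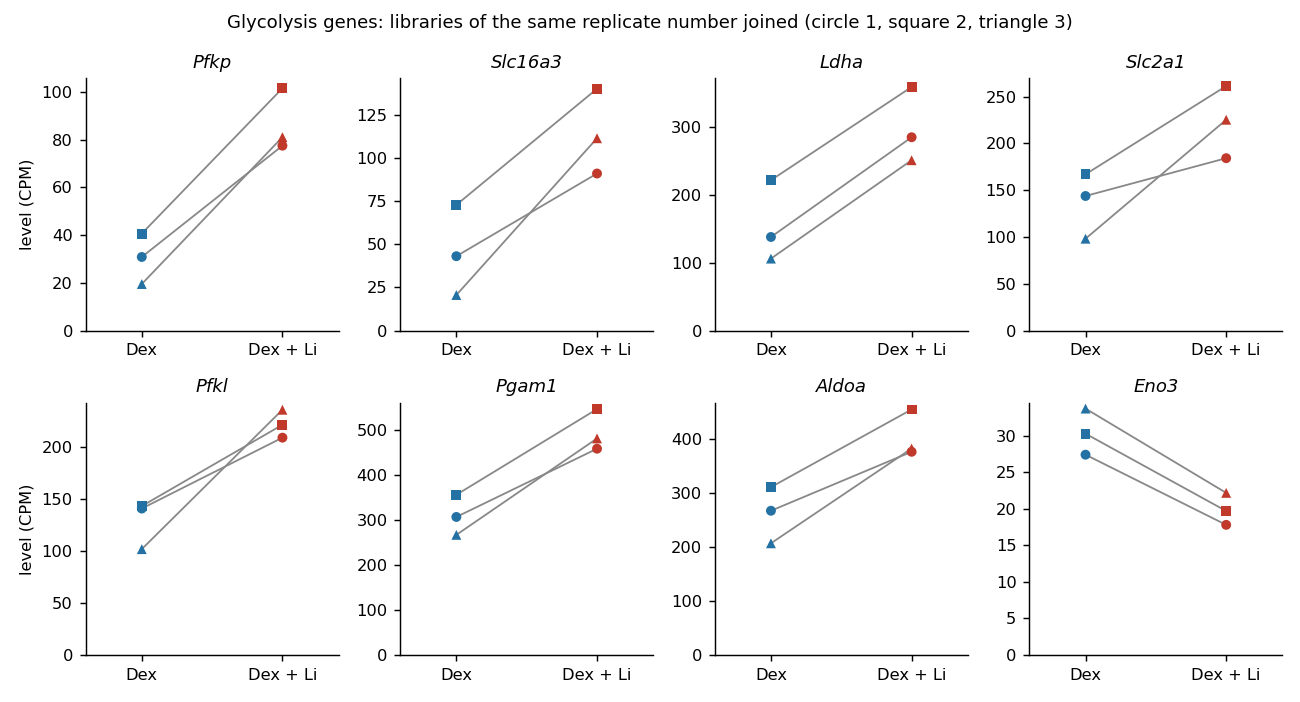
Levels (CPM, from 0) of 8 glycolysis genes with dexamethasone and with dexamethasone + LiCl, with libraries of the same replicate number joined by a line. Pfkp runs from 19.5 to 40.6 CPM with dexamethasone and from 77.5 CPM upward with LiCl added; all lines rise except in Eno3.

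Of 24 measured genes that respond to low oxygen, 3 were higher and none lower, with a median of 0.50. With the replicate block 12 were higher, against 5.55% of all genes in that fit. Low-oxygen genes that rose numbered from 1 without dexamethasone replicate 1 or 3 or dexamethasone + LiCl replicate 2 or 3 to 13 without dexamethasone replicate 2. Carbonic anhydrase 12 (Car12), which regulates acidity at the cell surface, was at 91.2, 126 and 70.04 CPM and at 197, 235 and 175 CPM (log2 fold change 1.08 ± 0.17, adjusted p = 0.00102). The glucose transporter Slc2a1 rose by 0.71 and the collagen prolyl hydroxylase P4ha2 by 0.76. Slc2a1 did not pass without dexamethasone replicate 1 or 3, LiCl replicate 2 or dexamethasone + LiCl replicate 2 or 3 (adjusted p = 0.0507 to 0.143). P4ha2 did not pass without dexamethasone replicate 1 or 3 or dexamethasone + LiCl replicate 2 or 3 (adjusted p = 0.0629 to 0.119). Slc2a1, Pdk1 and Pfkfb4 are on both this list and that of glycolysis.

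Of 24 measured genes of cholesterol synthesis, 9 were higher and none was lower, with a median of 0.26. Cholesterol genes that rose numbered from 2 without dexamethasone replicate 3 to 10 without control replicate 2. Squalene epoxidase (Sqle) was at 60.9, 65.1 and 57.04 CPM and at 88.5, 102 and 89.5 CPM (log2 fold change 0.61 ± 0.08, adjusted p = 0.000347). Dhcr7, the last enzyme of the pathway, was at 32.5, 29.9 and 29.1 CPM and at 48.95, 43.2 and 50.8 CPM (log2 fold change 0.65 ± 0.09, adjusted p = 0.000611). The libraries of both genes were separate. Of 34 measured genes of complex I of the respiratory chain, none was higher or lower (edgeR, none with the replicate block either), with a median of 0.15. The fold change was positive in 31 of the 34, and 13 had separate libraries above and none below, against 13.3% and 14.4% of all genes. Leaving out 1 library gave 0 to 2 higher members, the 2 without control replicate 2. Of 21 measured genes that break down branched-chain amino acids, 3 were lower (5 with the replicate block) and none was higher, led by Bckdha (-0.74), a subunit of the enzyme that commits these acids to breakdown. Branched-chain genes that fell numbered from 1 without dexamethasone + LiCl replicate 1 to 4 without control replicate 2.

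The factor ATF4 switches on genes that make amino acids and one-carbon units when supplies are short. Of 27 measured, 5 fell and none rose (7 fell with the replicate block), with a median of -0.24. ATF4 genes that fell numbered from 1 without dexamethasone replicate 3 or dexamethasone + LiCl replicate 1 to 11 without dexamethasone replicate 2. The mitochondrial folate enzyme Mthfd2 was at 92.1, 85.9 and 98.5 CPM and at 60.4, 66.3 and 70.8 CPM (log2 fold change -0.48 ± 0.08, adjusted p = 0.0018). Its 3 libraries with LiCl added were all below those with dexamethasone. The stress kinase homologue Trib3 was at 36.1, 25.5 and 64.4 CPM and at 11.04, 17.2 and 25.7 CPM, with overlapping groups (log2 fold change -1.17 ± 0.30, adjusted p = 0.0235). Trib3 did not pass without dexamethasone replicate 3 or dexamethasone + LiCl replicate 1 or 2 (adjusted p = 0.0779 to 0.126).

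Of 31 measured targets of the DNA damage factor p53, 7 rose and 2 fell, with a median of 0.16, and 1 of the 7, Eda2r, reached the count filter only with LiCl. The higher count ranged from 6 without dexamethasone replicate 1 or dexamethasone + LiCl replicate 1 or 2 to 8 without dexamethasone + LiCl replicate 3. Zmat3, an RNA-binding protein, was at 40.6, 40.6 and 39.4 CPM and at 85.2, 84.7 and 63.9 CPM (log2 fold change 0.95 ± 0.10, adjusted p = 4.49e-05). The exonuclease Aen was at 28.97, 32.6 and 33.3 CPM and at 62.8, 66.9 and 52.3 CPM (log2 fold change 0.94 ± 0.12, adjusted p = 0.000139). The cell cycle inhibitor Cdkn1a was at 115, 74.5 and 105 CPM and at 189, 182 and 173 CPM (log2 fold change 0.89 ± 0.12, adjusted p = 0.000269). In all 3 the libraries were separate. The pro-apoptotic gene Bax was at 25.6, 23.8 and 33.7 CPM and at 42.5, 39.9 and 40.9 CPM (log2 fold change 0.58 ± 0.12, adjusted p = 0.00806). Bax was higher in each library with LiCl added than in any with dexamethasone. Bcl2, which opposes it, had a log2 fold change of -0.32 ± 0.17 (adjusted p = 0.297). Perp, a p53 target that is also a protein of desmosomes, went the other way, at 11.1, 9.48 and 10.98 CPM and at 3.17, 4.20 and 3.74 CPM (log2 fold change -1.49 ± 0.24, adjusted p = 0.00112).

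Of 36 measured genes of mitosis, 2 were higher and none was lower (4 higher with the replicate block), with a median of 0.02. Of 46 measured genes of DNA replication, 2 were higher and none was lower (3 higher with the replicate block), with a median of 0.19. These shares of calls are near the 3.82% of all genes. Of the DNA replication genes 37 had a positive fold change, and 14 had separate libraries above and none below, against 13.3% and 14.4% of all genes. The count for mitosis ranged from 0 without dexamethasone replicate 2 or 3, any 1 LiCl library or dexamethasone + LiCl replicate 1 or 3 to 3 without dexamethasone replicate 1. That for DNA replication ranged from 0 without dexamethasone replicate 3 or dexamethasone + LiCl replicate 1 to 2 without control replicate 2, dexamethasone replicate 1 or dexamethasone + LiCl replicate 2. The DNA polymerase subunit Pold1 rose by 0.45 on the log2 scale. Pold1 did not pass without dexamethasone replicate 3 or dexamethasone + LiCl replicate 1 (adjusted p = 0.0548 to 0.0581). Pcna, the clamp of replicating DNA polymerase, had a log2 fold change of 0.22 ± 0.08 (adjusted p = 0.111).

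Among detoxifying genes driven by NFE2L2, 5 of 25 measured were higher and 1 was lower. NFE2L2 genes that rose numbered from 3 without dexamethasone + LiCl replicate 2 to 6 without control replicate 2 or dexamethasone + LiCl replicate 3. The quinone reductase Nqo1 was at 120.0, 109 and 72.2 CPM and at 193, 199 and 172 CPM (log2 fold change 0.90 ± 0.16, adjusted p = 0.00245). The malic enzyme Me1, which makes NADPH, rose by 0.82. The aryl hydrocarbon receptor Ahr and its repressor Ahrr rose by 1.13 and 1.22. Of 7 measured genes of that receptor 3 were higher, Ahr, Ahrr and Nqo1, and Nqo1 is also on the NFE2L2 list. On the same receptor list Cyp1a1 (0.03, adjusted p = 0.958), Cyp1b1 (0.32, adjusted p = 0.297) and Tiparp (0.16, adjusted p = 0.381) did not pass (edgeR's quasi-likelihood test). Of 14 measured genes of osmotic stress, 2 were higher and 3 lower (4 lower with the replicate block). Osmotic genes that fell numbered from 2 without dexamethasone replicate 1 or 3 or any 1 dexamethasone + LiCl library to 4 without dexamethasone replicate 2. Besides Slc6a12, the calcium-binding protein S100a4 rose by 0.82. The sodium-potassium-chloride carrier Slc12a2 was at 109, 110.2 and 127 CPM and at 73.2, 73.3 and 66.3 CPM (log2 fold change -0.70 ± 0.08, adjusted p = 8.48e-05). It was lower in every library with LiCl added.

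**Figure D4:**
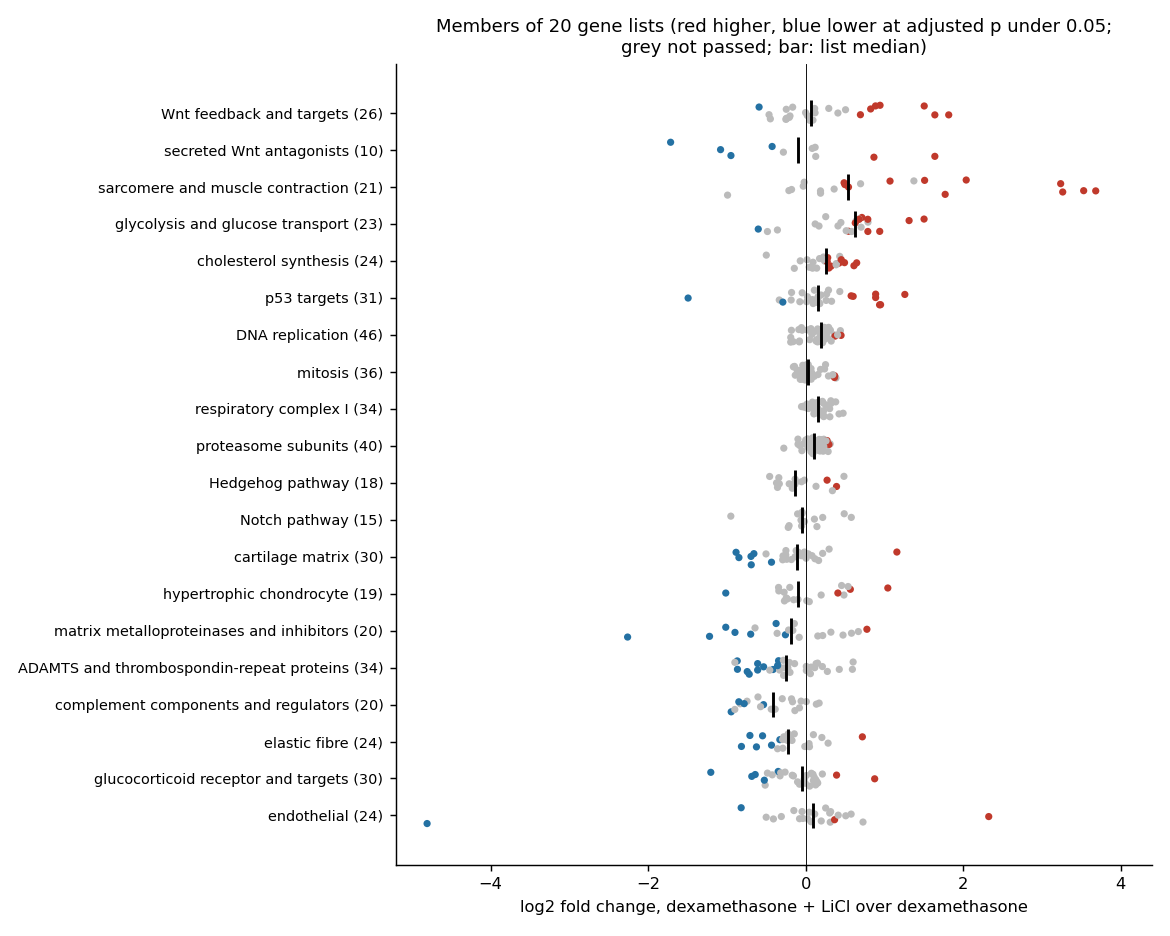
Log2 fold changes of dexamethasone + LiCl over dexamethasone for the measured members of 20 gene lists, with the number of members in brackets. Each point is a gene, red or blue where it passed an adjusted p of 0.05 and grey where it did not, and black bars are list medians. The medians of sarcomere and glycolysis genes are 0.54 and 0.63 and that of complement genes is -0.41.

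Of 30 measured cartilage matrix genes, 6 were lower and 1 was higher with LiCl added, the matrix gene Vit (1.16), and the median was -0.11. Col2a1 was at 38269, 32156 and 52312 CPM with LiCl added, overlapping its range with dexamethasone (log2 fold change 0.03 ± 0.22, adjusted p = 0.958). The genes that fell were those of smaller matrix proteins. Chondroadherin (Chad) was at 80.6, 67.2 and 75.2 CPM and at 38.7, 38.3 and 43.3 CPM (log2 fold change -0.89 ± 0.11, adjusted p = 0.000129). Matrilin 4 (Matn4) was at 157, 143 and 177 CPM and at 85.7, 86.04 and 92.7 CPM (log2 fold change -0.85 ± 0.12, adjusted p = 0.000411). Epiphycan (Epyc) was at 477, 517 and 489.9 CPM and at 295, 341 and 304 CPM (log2 fold change -0.66 ± 0.08, adjusted p = 0.000129). In these 3 genes every library with LiCl added was below every library with dexamethasone. Cartilage matrix genes that fell numbered from 5 without dexamethasone replicate 3 or dexamethasone + LiCl replicate 1 or 2 to 8 without control replicate 2.

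Of 19 measured markers of hypertrophic chondrocytes, 3 were higher and 1 was lower (5 and 2 with the replicate block), with a median of -0.10. Hypertrophic genes that rose numbered from 0 without dexamethasone + LiCl replicate 2 to 4 without control replicate 2 or dexamethasone replicate 1. Collagen X (Col10a1), the defining marker, was at 3634, 2163 and 2727 CPM and at 2795, 2336 and 2529 CPM, and its groups overlapped (adjusted p = 0.597). Collagenase 3 (Mmp13), which clears the matrix of hypertrophic cartilage, was at 46.04, 31.2 and 48.1 CPM and at 25.8, 17.2 and 19.2 CPM (log2 fold change -1.02 ± 0.17, adjusted p = 0.00167). Phospho1, which starts mineral formation, rose by 0.57. Phospho1 did not pass without dexamethasone + LiCl replicate 2 or 3 (adjusted p = 0.0528 to 0.0792). Of 16 measured osteoblast genes, none was higher or lower (edgeR, 1 and 1 with the replicate block), with a median of -0.24. Leaving out 1 library gave 0 to 2 lower osteoblast genes, the 2 without dexamethasone replicate 2.

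The ligand that paces hypertrophy, Ihh, was at 113, 66.8 and 104 CPM and at 123, 123 and 149.5 CPM, with separate groups (log2 fold change 0.48 ± 0.15, adjusted p = 0.0632). Ihh passed with the replicate block, at an adjusted p of 0.0379. Of 18 measured genes of the Hedgehog pathway, 2 were higher and none was lower, with a median of -0.14, and with the replicate block 3 were higher and 3 lower. Hedgehog genes that rose numbered from 0 without dexamethasone replicate 2 or 3 or any 1 dexamethasone + LiCl library to 3 without control replicate 2. The pathway's own readout Gli1 rose (0.27). Gli1 did not pass without any 1 dexamethasone library, LiCl replicate 2 or 3 or any 1 dexamethasone + LiCl library (adjusted p = 0.0532 to 0.144). Of 15 measured Notch genes, none was higher or lower (edgeR, none with the replicate block), with a median of -0.05.

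BMP and GDF genes moved in both directions. Of 27 measured, 5 were higher and 8 lower, with a median of 0.03. BMP and GDF genes that rose numbered from 2 without dexamethasone replicate 1 or 2 or dexamethasone + LiCl replicate 1 to 6 without control replicate 2. BMP and GDF genes that fell numbered from 2 without dexamethasone replicate 3 or dexamethasone + LiCl replicate 1 to 8 without control replicate 2. The ligand gene Gdf10 was at 178, 131 and 189.8 CPM and at 78.9, 69.1 and 89.8 CPM (log2 fold change -1.06 ± 0.15, adjusted p = 0.000411). Chrdl1, which binds BMP proteins and blocks them, was at 24.6, 19.98 and 20.8 CPM and at 11.9, 9.85 and 11.4 CPM (log2 fold change -0.98 ± 0.14, adjusted p = 0.000458). Both fell in every library. The ligands Bmp4 and Bmp7 rose by 0.53 and 0.64. Follistatin (Fst), which binds activins, was at 21.3, 16.6 and 18.9 CPM and at 8.09, 8.30 and 9.34 CPM (log2 fold change -1.13 ± 0.15, adjusted p = 0.000255). The activin subunit Inhba also fell, with a log2 fold change of -0.58. Of 25 measured TGF-β and activin genes, 2 were higher and 3 lower (3 and 5 with the replicate block). TGF-β and activin genes that fell numbered 6 without dexamethasone replicate 2 and at least 2 without any other library.

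Of 20 measured genes of the IGF and growth hormone axis, 4 were lower and none was higher, with a median of -0.13. With the replicate block 6 were lower, against 7% of all genes in that fit. IGF axis genes that fell numbered from 2 without dexamethasone replicate 3 or dexamethasone + LiCl replicate 1 or 3 to 5 without control replicate 2 or 3. The growth hormone receptor Ghr was at 222, 256 and 223 CPM and at 174, 191 and 165 CPM (log2 fold change -0.40 ± 0.08, adjusted p = 0.00773). Its groups did not overlap. Pappa, a protease that frees IGF from its binding proteins, fell, with a log2 fold change of -0.99, as did the binding protein Igfbp3 (-0.59). Pappa did not pass without dexamethasone replicate 3 or dexamethasone + LiCl replicate 1 or 3 (adjusted p = 0.0578 to 0.09). Igfbp3 did not pass without dexamethasone + LiCl replicate 3 (adjusted p = 0.0596). Of 19 measured FGF genes, 3 were higher and 2 lower. Those that fell numbered 3 without dexamethasone replicate 2 and at least 1 without any other library. FGF genes that rose numbered from 0 without dexamethasone replicate 2 or 3 or dexamethasone + LiCl replicate 1 or 2 to 3 without any 1 control library, dexamethasone replicate 1 or LiCl replicate 1. Etv5 was among those that fell (-0.45), and the receptor Fgfr3, which restrains growth plate chondrocytes, among those that rose (0.34). The list moved in both directions, and no single member is read as its readout. Fgfr3 did not pass without dexamethasone replicate 2 or 3, LiCl replicate 2 or 3 or any 1 dexamethasone + LiCl library (adjusted p = 0.0503 to 0.118).

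Among genes of matrix turnover and of the elastic fibre, more fell than rose. Of 20 measured matrix metalloproteinases and inhibitors, 1 was higher and 7 were lower, with a median of -0.19 (2 and 7 with the replicate block). The one that rose was gelatinase A (Mmp2), at 491, 446 and 400.3 CPM and at 820.3, 753 and 716 CPM (log2 fold change 0.78 ± 0.10, adjusted p = 0.00016). The inhibitor Timp4 was at 27.8, 25.3 and 29.1 CPM and at 12.6, 11.04 and 11.7 CPM (log2 fold change -1.22 ± 0.13, adjusted p = 3.86e-05). Proteases and an inhibitor thus fell side by side. Of 34 measured ADAMTS proteases and related proteins, 10 were lower and none was higher, with a median of -0.25. With the replicate block 12 were lower and 2 higher, against 7% and 5.55% of all genes in that fit. ADAMTS genes that fell numbered from 5 without dexamethasone replicate 3 or dexamethasone + LiCl replicate 3 to 12 without control replicate 2. Adamts6 fell, with a log2 fold change of -0.87. Of 24 measured genes of the elastic fibre, 6 were lower and 1 was higher, with a median of -0.23. Fibulin 5 (Fbln5), which assembles elastin, was at 92.1, 80.1 and 88.6 CPM and at 46.3, 52.2 and 49.3 CPM (log2 fold change -0.82 ± 0.11, adjusted p = 0.000209). Elastin itself (Eln) fell, with a log2 fold change of -0.71. The lower count of this list ranged from 4 without dexamethasone replicate 1 or 3 or any 1 dexamethasone + LiCl library to 9 without dexamethasone replicate 2.

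Of 24 measured cadherins and nectins, 8 were lower and 1 was higher, with a median of -0.29. With the replicate block 13 were lower, against 7% of all genes in that fit. Cadherin and nectin genes that fell numbered from 3 without dexamethasone replicate 1 or 3 or dexamethasone + LiCl replicate 3 to 9 without control replicate 1 or 2 or dexamethasone replicate 2. The protocadherin Pcdh8 was at 12.2, 6.04 and 10.4 CPM and at 2.51, 3.10 and 3.68 CPM (log2 fold change -1.58 ± 0.27, adjusted p = 0.0019). Cdh8 was at 25.8, 25.2 and 29.3 CPM and at 14.3, 13.8 and 12.6 CPM (log2 fold change -0.98 ± 0.12, adjusted p = 0.000107). Both are adhesion proteins known from the nervous system, and both fell in every library.

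Of 20 measured complement genes, 4 fell and none rose (5 fell with the replicate block), with a median of -0.41. Complement genes that fell numbered from 3 without any 1 dexamethasone library or dexamethasone + LiCl replicate 2 or 3 to 6 without control replicate 3. Clusterin (Clu), which restrains complement, was at 60.7, 67.8 and 69.5 CPM and at 33.7, 41.1 and 40.00 CPM (log2 fold change -0.78 ± 0.09, adjusted p = 9.87e-05). Of 15 measured chemokines, interleukins and receptors, 2 were higher and 4 lower. Cxcl12, which guides blood-forming and endothelial cells, was at 60.5, 59.3 and 69.4 CPM and at 41.1, 36.95 and 32.1 CPM (log2 fold change -0.79 ± 0.11, adjusted p = 0.000362). Its receptor Cxcr4 rose (0.86). The interleukin 1 receptor Il1r1 was at 102, 102 and 99.3 CPM and at 64.3, 60.04 and 56.4 CPM (log2 fold change -0.75 ± 0.09, adjusted p = 5.8e-05). Cxcl12 and its receptor moved in opposite directions.

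Of 30 measured genes of the glucocorticoid receptor and its targets, 2 were higher and 5 lower when LiCl was added, against 3.82% and 4.78% of all genes, with a median of -0.05. With the replicate block 8 were lower, against 7% of all genes. Separate libraries lay below in 12 of the 30 and above in 2, against 14.4% and 13.3% of all genes. Receptor-controlled genes that fell numbered from 2 without dexamethasone replicate 1 or 3 or dexamethasone + LiCl replicate 1 or 3 to 9 without control replicate 2. Fkbp5, a chaperone that the receptor switches on, was at 237, 213 and 263 CPM and at 231, 222 and 249.95 CPM (log2 fold change -0.02 ± 0.10, adjusted p = 0.941). Tsc22d3 (GILZ), another of its targets, was at 282, 279.7 and 310.2 CPM and at 290.2, 336 and 306 CPM (log2 fold change 0.10 ± 0.10, adjusted p = 0.625). The groups overlapped in both genes. Lipocalin 2 (Lcn2), which binds iron carriers, was at 42.1, 39.6 and 36.6 CPM and at 18.9, 16.97 and 15.7 CPM (log2 fold change -1.21 ± 0.12, adjusted p = 2.29e-05). The kinase Sgk1, which acts on sodium transport, was at 128, 101 and 124 CPM and at 77.04, 69.8 and 72.5 CPM (log2 fold change -0.69 ± 0.10, adjusted p = 0.000582). Also lower were Sult1a1 (-0.53, mean 55.2 CPM with dexamethasone and 38.5 CPM with LiCl added), Klf15 (-0.35, 54.3 and 42.5 CPM) and Cebpb (-0.64). Cebpb did not pass without dexamethasone replicate 1 or 3 or any 1 dexamethasone + LiCl library (adjusted p = 0.0568 to 0.114). Transglutaminase 2 (Tgm2), which cross-links matrix proteins, rose by 0.87 and Per2 by 0.39. The receptor gene Nr3c1 had a log2 fold change of -0.26 ± 0.08 (adjusted p = 0.0554, and 0.0457 with the replicate block).

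Markers of other cell types were counted against the same shares of all genes, 3.82% higher and 4.78% lower. Of 24 measured endothelial genes, 2 were higher and 2 lower, and the summed level of the 28 listed was 283, 281 and 264 CPM with dexamethasone and 280, 279 and 267 CPM with LiCl added. Sox7, a factor of blood vessel cells, rose from 0.31, 0.755 and 0.112 CPM to 2.62, 2.01 and 1.93 CPM (log2 fold change 2.32 ± 0.40, adjusted p = 0.00212). Angpt2, which loosens vessels, fell from 47.6, 50.8 and 37.7 CPM to 27.3, 27.4 and 22.9 CPM (log2 fold change -0.82 ± 0.15, adjusted p = 0.00305). Endothelial genes that fell numbered from 1 without control replicate 1 to 3 without control replicate 2. The summed level of the list thus stayed within its range while single genes moved both ways. Of the 24, 6 had separate libraries above and 3 below, against 13.3% and 14.4% of all genes. The endothelial marker Cdh5 also rose (0.37). Cdh5 did not pass without dexamethasone replicate 1 or 2 or dexamethasone + LiCl replicate 1 or 3 (edgeR, adjusted p = 0.0579 to 0.12). The markers Pecam1 (0.31) and Kdr (-0.15) did not pass. The share of endothelial cells was not measured. Of 16 measured macrophage genes, 1 was lower, lysozyme (Lyz2, -1.26). With the replicate block 4 were lower, against 7% of all genes in that fit. Macrophage genes that fell numbered from 1 without any 1 dexamethasone library, LiCl replicate 2 or 3 or dexamethasone + LiCl replicate 1 or 3 to 4 without control replicate 1 or 2. The sum over the 24 macrophage genes in the files was 370, 395 and 352 CPM with dexamethasone and 277, 316 and 291 CPM with LiCl added, with no overlap. Of 10 measured osteoclast genes, none was higher or lower (edgeR, none with the replicate block). Of 4 measured erythroid and mast cell genes 2 were higher. They were the haemoglobin genes Hba1 (0.68) and Hbb-b1 (0.65), which may share reads with near-identical copies. The red cell markers Alas2 and Slc4a1 overlapped between the groups, at 1.86 to 3.25 CPM with dexamethasone against 2.1 to 3.61 CPM for Alas2 and 1.01 to 2.69 CPM against 2.19 to 3.06 CPM for Slc4a1. The nerve growth factor receptor Ngfr, expressed by Schwann and mesenchymal cells, rose by 1.43.

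The remaining lists are given by their counts, beside 3.82% higher and 4.78% lower of all genes (5.55% and 7% with the replicate block). Several counts are near those shares, and a single member that passed is not read as a change of its list. Of 7 measured smooth muscle genes 2 were higher, Acta2 and the myosin gene Myh11 (0.72), and of 13 tendon and joint genes 1 was higher, dermatopontin (Dpt, 1.65), and with the replicate block 1 was also lower. Of 7 measured adipocyte genes none was higher or lower (edgeR), and with the replicate block 1 was lower, Adipoq, which had 1, 14 and 4 counts with dexamethasone and 0, 1 and 0 with LiCl added. Leaving out 1 library gave 0 to 2 lower adipocyte genes, the 2 without control replicate 3. Of 8 measured Schwann cell genes 1 was higher (Ngfr), and of 8 measured genes of epidermis and desmosomes 1 was lower (Perp). Of 17 measured genes of early response and heat shock none was higher or lower (edgeR, 2 and 1 with the replicate block). Of 27 measured genes of fatty acid oxidation 1 was lower, the mitochondrial importer Cpt1a (-0.60), and with the replicate block 2 were lower. Of 17 measured clock genes 1 was higher (Per2, 2 with the replicate block), of 40 measured proteasome subunits 3 were higher, and of 3 measured genes of creatine metabolism 1 was higher (Ckb). The proteasome count was 4 with the replicate block. It ranged from 0 without dexamethasone replicate 1 or 3 or any 1 dexamethasone + LiCl library to 5 without control replicate 2. Of the 40 proteasome subunits 33 had a positive fold change, with a median of 0.10. Their libraries were separate above in 13 and below in none, against 13.3% and 14.4% of all genes. Of 15 measured genes of sodium transport 1 was higher and 2 were lower (2 and 2 with the replicate block), of 13 cyclins and cell cycle inhibitors 1 was higher and 1 lower, of 15 genes of the BCL2 family 1 was higher (Bax), and of 4 metallothioneins and zinc exporters 1 was higher (Mt1a, which reached the filter only with LiCl). Of the 6 genes Pcna, Bcl2, Ctnnb1, Bax, Gsk3b and Nr3c1, 1 was higher (Bax) and 1 lower (Ctnnb1), and with the replicate block 1 was higher and 2 were lower. Of the genes named here, Myh11 did not pass without dexamethasone replicate 2 or 3 or any 1 dexamethasone + LiCl library (adjusted p = 0.0564 to 0.13). Cpt1a did not pass without dexamethasone replicate 1 or 3 or any 1 dexamethasone + LiCl library (adjusted p = 0.072 to 0.123). Ckb did not pass without dexamethasone replicate 2 or 3 or dexamethasone + LiCl replicate 1 or 3 (adjusted p = 0.0653 to 0.0729). Per2 did not pass without dexamethasone replicate 1 or 3 or dexamethasone + LiCl replicate 2 (adjusted p = 0.0531 to 0.084).

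The response to LiCl without dexamethasone, in libraries that share none with the comparison above, had the same direction for nearly all of the 172 genes. LiCl against control gave 199 calls past 2-fold (1.58%), of which 102 were higher (0.809%) and 97 lower (0.77%), and 4.71% of all genes passed as higher and 5.9% as lower without the fold limit. Of the 97 called higher, 94 had a positive log2 fold change in LiCl against control, 73 of them at an adjusted p under 0.05 and 57 also past 2-fold. Of the 75 called lower, all had a negative one, 56 passed and 39 also fell more than 2-fold. Over all 12602 genes, 69.1% had the same direction, with r = 0.707 across genes, which are not independent replicates. The genes called higher in both comparisons were 58.8% of those called with dexamethasone and 55.9% of those called without it, and those called lower in both were 52% and 40.2%. None of the 172 passed in opposite directions. Genes were picked for a large change with dexamethasone, so a smaller change without it is favoured by the choice.

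**Figure D5:**
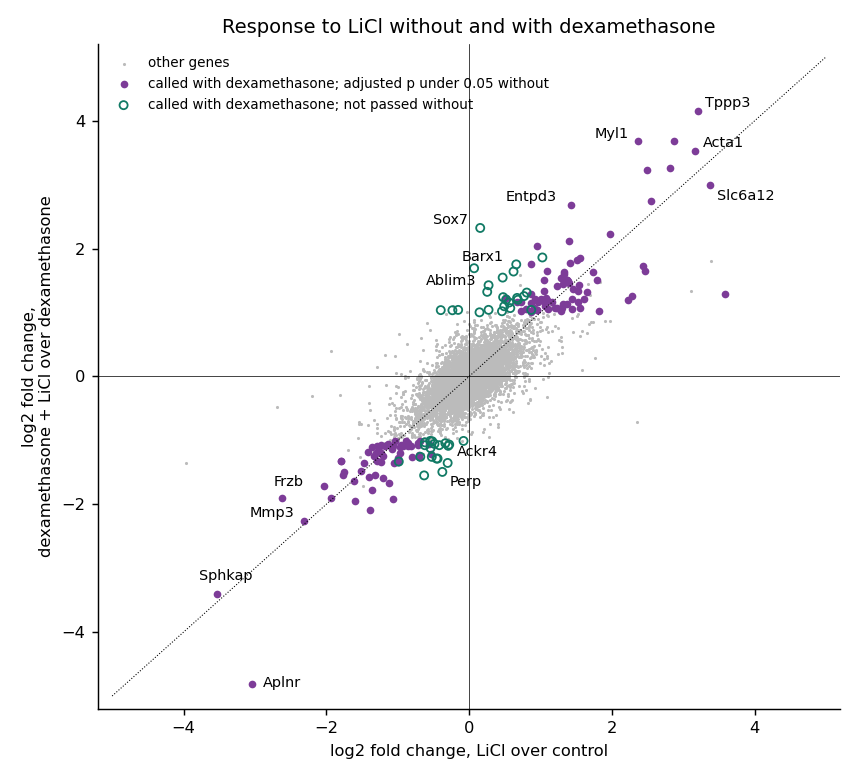
Log2 fold change of dexamethasone + LiCl over dexamethasone (vertical) against LiCl over control (horizontal) for 12602 genes, with a dotted line of equal change. Filled points are genes called with dexamethasone that also passed without it and open circles are those that did not; Sox7 stands apart at 2.32 against 0.15.

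Of the 97 genes called higher 24 did not pass without dexamethasone, and of the 75 called lower 19 did not. Sox7 had a log2 fold change of 0.15 there (adjusted p = 0.696) and Mt1a one of 1.03 (adjusted p = 0.336). The log2 fold change without dexamethasone was 3.20 for Tppp3, 3.37 for Slc6a12, -3.54 for Sphkap and -2.31 for Mmp3. Of the Wnt genes, Nkd2 changed by 1.50, Notum by 1.74, Axin2 by 0.68 and Frzb by -2.03. The muscle genes Acta1 and Myh3 changed by 3.17 and 2.82. The difference between the responses was tested as the interaction of the drugs. It passed in 1 gene of 12602 (0.00794%), Hif3a, which is not among the 172, and 704 genes had an unadjusted p under 0.05 (5.59%). Among the 172 the smallest adjusted p of the interaction was 0.233, that of Ablim3. The count was 0 without control replicate 1, dexamethasone replicate 1 or 3, LiCl replicate 2 or 3 or any 1 library with both drugs, and 2 without control replicate 3. DESeq2 gave 25.

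For 4 of the genes with the smallest interaction p among the 172, the levels were compared over all 4 groups. All 4 are also on the authors' list described below, picked for opposite movement, and do not stand for the 172. Dexamethasone against control shares the dexamethasone libraries with the comparison above, which favours opposite directions. No count of shared or opposite calls is therefore given. Sox7 was at 4.73, 5.85 and 4.99 CPM in control, 4.93, 5.66 and 6.49 CPM with LiCl, 0.31, 0.755 and 0.112 CPM with dexamethasone and 2.62, 2.01 and 1.93 CPM with both. It was lowest with dexamethasone and lay between that level and control when LiCl was added, and its interaction did not pass (log2 2.17 ± 0.47, adjusted p = 0.31). Ablim3, an actin-binding protein, was at 10.6, 9.66 and 11.1 CPM in control, 11.4, 12.4 and 13.7 CPM with LiCl, 3.31, 2.94 and 4.03 CPM with dexamethasone and 9.51, 8.30 and 7.88 CPM with both (interaction log2 1.07 ± 0.22, adjusted p = 0.233). Perp was at 0.9, 0.371 and 0.655 CPM in control, 0.929, 0.367 and 0.387 CPM with LiCl, 11.1, 9.48 and 10.98 CPM with dexamethasone and 3.17, 4.20 and 3.74 CPM with both (interaction log2 -1.12 ± 0.47, adjusted p = 0.838). Ackr4, a receptor that removes chemokines, was at 2.88, 2.79 and 2.97 CPM in control and 7.97, 6.71 and 6.95 CPM with dexamethasone, and at 2.08, 3.92 and 2.45 CPM with both drugs (adjusted p of the interaction = 0.763). With both drugs Perp lay between control and dexamethasone in all 3 libraries, and Ackr4 was below its level with dexamethasone and around that of control.

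A further list was picked by the authors, from these same libraries, for genes that changed in opposite directions between comparisons of the study, so that their direction here is no independent evidence. Of its 16 genes, 15 were measured. Of these, 9 were higher and 4 lower with LiCl added, and the 2 that did not pass were Cytl1 (log2 fold change -0.29 ± 0.27, adjusted p = 0.577) and Kif19 (-0.79 ± 0.27, adjusted p = 0.0839, 0.0225 with the replicate block). The higher count ranged from 5 without dexamethasone replicate 3 or dexamethasone + LiCl replicate 3 to 9 without control replicate 2. Of the 13, 12 had separate libraries and Dlx3 did not. Among the 13 that passed, Tppp3, Pcdh8, Srl and RGD1311892 also changed in that direction with LiCl alone. Dexamethasone against control shares the dexamethasone libraries with this comparison, and a low or high value there moves both. The adenosine receptor Adora2a had a log2 fold change of 1.69 ± 0.47 (adjusted p = 0.0352), and it did not pass without any 1 dexamethasone library, LiCl replicate 3 or any 1 dexamethasone + LiCl library (adjusted p = 0.05 to 0.131). The glutamate receptor Grm4 had a log2 fold change of 1.64 ± 0.48 (adjusted p = 0.0451), and it did not pass without control replicate 3, dexamethasone replicate 2 or 3, LiCl replicate 1 or 2 or dexamethasone + LiCl replicate 2 or 3 (adjusted p = 0.0548 to 0.2). Dlx3, a homeobox factor of bone and skin, had a log2 fold change of 1.04 ± 0.25 (adjusted p = 0.0189), and it did not pass without dexamethasone replicate 2 or 3 or dexamethasone + LiCl replicate 2 or 3 (adjusted p = 0.0565 to 0.0937). RGD1311892 did not pass without dexamethasone replicate 3 or dexamethasone + LiCl replicate 3 (adjusted p = 0.0551 to 0.0661).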

How the data were processed

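RNA was measured in 12 libraries, 3 for each of 4 conditions, made with a strand-specific mRNA kit from pools of about 20 bones. The deposited values were raw read counts per gene symbol in 1 file per library. According to the methods and the submitters' processing notes, the authors aligned reads with Subread, removed duplicates with Picard and counted reads with HTSeq. The setting for strand was not given in the sources used here. The notes name a human build (hg19, GRCh37) for these rat libraries, so the build behind the counts was not settled, and no coordinates came from the files.

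Counts were tested with edgeR's quasi-likelihood test (edgeR 4.0.16, limma 3.58.1, R 4.3.3) after TMM scaling, in 1 fit over the 12 libraries with condition as the only term (8 residual degrees of freedom). Of 30045 symbols, 23569 had a count and the 12602 that reached 60 counts in 2 or more libraries entered the fit. P-values were adjusted by the Benjamini-Hochberg method over these genes. A call needed an adjusted p under 0.05 together with a fold above 2 or below 0.5, and members of gene lists were counted at the adjusted p alone. Errors of fold changes are SE, and CPM used TMM library sizes. The p-values measure the spread between pools.

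The labels number the libraries of each group 1 to 3 and do not say what a number shares. The study describes each library as a pool from 1 rat and condition, with 3 rats, and 3 experiments for RNA, without tying numbers to either. Deviations from the group mean of libraries with the same number correlated at 0.191, 0.5 and 0.421 between dexamethasone + LiCl and dexamethasone and at 0.302, 0.209 and 0.238 between LiCl and control, while no pair of different numbers exceeded 0.0854. The numbers were therefore taken to pair the libraries. The main fit did not use this pairing and passed 1084 genes without the fold limit, against 1581 in a fit with the numbers as a block. That fit was 1 of the alternatives. The others were RLE scaling, DESeq2 (1.42.0), other count filters, counts thinned to the smallest library, the 6 compared libraries alone and leaving out each library.

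The comparison and the 55 gene lists were chosen with earlier results of these data known. Genes named were the 20 largest rises and falls with separate libraries, up to 4 members per list with the smallest adjusted p, the lists taken from the study, the 10 called genes with the smallest interaction p, and defining markers. Apcdd1, Sfrp5, Lef1, Axin2, Fkbp5, Tsc22d3, Smoc1, Tf, Hif3a, Slc16a3, Tnni1, Eno3 and Gapdh were added after their values were seen. Upstream stretches came from RefSeq (GRCr8) and were matched by symbol. Figures were drawn with matplotlib 3.10.9. Some genes that the rule would name are not reported here.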

Additional observations from a re-analysis of the deposited data

Results flagged for a closer look

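Hif3a, a relative of the oxygen-sensing HIF factors, had a response to LiCl that differed with and without dexamethasone, the 1 call among 12602 genes in edgeR without a block (interaction -1.406 on the log2 scale, adjusted p = 0.0334, edgeR's quasi-likelihood test with n = 3 pools per group). It was at 22.3, 14.3 and 24.03 CPM in control and at 36.8, 45.8 and 48.1 CPM with LiCl (log2 fold change 1.09 ± 0.14, adjusted p = 0.000199). With dexamethasone it was at 191, 172 and 186 CPM, and with both drugs at 147, 140.0 and 154 CPM (log2 fold change -0.32 ± 0.13, adjusted p = 0.157). All 3 LiCl libraries lay above control, and all 3 with both drugs lay below dexamethasone alone. The adjusted p of the interaction was 0.00475 with the replicate block, where 3 genes passed. DESeq2 gave 25 such genes, and none passed in edgeR without control replicate 1, dexamethasone replicate 1 or 3, LiCl replicate 2 or 3 or any 1 library with both drugs.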

How the results depend on the processing

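The 172 calls became 313 without a count filter and 1084 without the fold limit, and 128 to 206 when 1 library was left out. The 199 calls of LiCl against control became 330 with edgeR's own count filter, 406 without a count filter and 1338 without the fold limit, and 178 to 205 with 1 library left out. The single interaction call became 25 with DESeq2, 37 without a count filter, 3 with the replicate block, and 0 to 2 with 1 library left out. It was 0 without any 1 of control replicate 1, dexamethasone replicates 1 or 3, LiCl replicates 2 or 3, or any library with both drugs. The causes of these shifts were not tested, except that settings without the count filter tested 23569 genes.

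With the replicate block the comparison gave 190 calls, of which 171 were among the 172. Of 275 genes named by rule or by choice, 22 passed only with the block and none was lost. With RLE scaling all 172 calls were kept, and the median log2 fold change shifted by -0.000289. DESeq2 gave 185 calls (170 shared), counts thinned to the smallest library gave 139 (126 shared), and the 6 compared libraries alone gave 163 (158 shared). No named gene that passed in the main fit or in the setting changed direction under any of these settings. For named genes that passed in neither, a change of sign was not counted. Leaving out dexamethasone replicate 3 lost 57 of the 172 calls and gained 13, and leaving out dexamethasone replicate 2 lost 28 and gained 62. Depth limits genes with under 60 counts, such as Ckm and Myod1, for which only counts are given. With 3 pools per group, small changes of the size seen in complex I genes may not have been detectable.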
